A study of Mus musculus with 3 samples.

Results

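The genes described here encode proteins that carry lipid outside the cell, pass it across the cell membrane or bind it in the cytosol: Clu, Apoe, Abca1, Fabp7 and Fabp5. They were chosen by gene symbol, and all 5 were found among the 31053 genes measured in each of 3 mouse single-cell RNA libraries. Each library is the only one of its group, so differences between groups have no replicate check and no p-value is given.

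All 3 groups are cultures from C57BL/6 cortex, each labelled E14.5, that were fixed in methanol and sequenced on the 10x Genomics droplet system. The neural stem cells grew as neurospheres in Neurobasal with B27, EGF and FGF2, each growth factor at 20 ng/mL. The astrocytes were kept in DMEM-F12 with B27 and 10% serum. The MIM-treated astrocytes were astrocytes moved for at most 5 days into a serum-free base medium with B27, N2 and 20 ng/mL FGF2, to which a set of metabolites was added, drawn from the amino acids cysteine, glycine, methionine and threonine, the polyamine putrescine and the methyl donor S-adenosylmethionine. The set and the day used for this library are not given in the sources used here. Whether the astrocytes came from GLAST-sorted postnatal cortex, which the embryonic label would not cover, or from neurospheres is not given. Between astrocytes and MIM-treated astrocytes, serum, FGF2, the base medium and the metabolites therefore cannot be told apart. Against neural stem cells FGF2 is the same, while EGF, the medium, the metabolites and the cells themselves differ together.

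Clusterin, the product of Clu, is a secreted chaperone that also travels on lipoprotein particles. Apolipoprotein E is the main protein of the lipoproteins that astrocytes release in the brain, and ABCA1 is the membrane pump that loads cholesterol and phospholipid onto it. Abca1 and Apoe are known targets of the liver X receptors, nuclear receptors that sense oxidised cholesterol. FABP7, or brain lipid-binding protein, is a cytosolic carrier of long-chain fatty acids known as a marker of radial glia and glial progenitors, and FABP5 is the epidermal member of the same family, also made in developing brain.

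On mm10, with GENCODE vM21 annotation, Clu lies at chr14:65968483-65981547 on the plus strand and Apoe at chr7:19696109-19699188 on the minus strand. Abca1 lies at chr4:53030787-53159895 on the minus strand, Fabp7 at chr10:57784881-57788450 and Fabp5 at chr3:10012548-10016607, both on the plus strand. All are protein-coding, and no other annotated gene overlaps any of them on either strand. Fabp5 has 2 pseudogenes, Gm14328 and Gm6166, whose transcripts match it at 95% identity or more over at least 200 bases. Neither is among the genes measured, so how reads from them were counted is unknown and the Fabp5 values are less certain than the others. The same search found 0 such transcripts for Clu, Apoe, Abca1 and Fabp7.

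Promoter windows from RefSeq (GRCm38.p6, 250 bases before and 50 after a start site) were at hand for 3 of the 5 genes, Abca1, Apoe and Fabp7, in 5 windows. Stretches upstream of the start site in the first window of each gene are shown because the 3 genes differed in direction between the libraries, as described below. Capitals mark matches to 4 patterns, which were chosen after the windows had been read and were searched on both strands. The patterns were the E-box CACGTG, the TATA element TATAAA, a nuclear factor I-type pattern and an LXR-type direct repeat. The nuclear factor I-type pattern was TTGGC and GCC with 5 bases of any kind between them. The LXR-type repeat was GGTNA and GGTCA with 5 bases of any kind between them. The sequences run 5′ to 3′ on the strand of the gene. The Abca1 stretch is chr4:53159896-53160145, the Apoe stretch chr7:19699189-19699438 and the Fabp7 stretch chr10:57784673-57784880. The Fabp7 stretch ends just before the GENCODE start of the gene, 208 bases long, and so short of the RefSeq start site at 57784923.
Abca1: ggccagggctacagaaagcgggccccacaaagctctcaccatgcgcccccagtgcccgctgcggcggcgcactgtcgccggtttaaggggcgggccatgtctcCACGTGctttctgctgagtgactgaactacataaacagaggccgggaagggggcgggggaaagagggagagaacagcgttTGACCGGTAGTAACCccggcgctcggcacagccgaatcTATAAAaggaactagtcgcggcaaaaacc
Apoe: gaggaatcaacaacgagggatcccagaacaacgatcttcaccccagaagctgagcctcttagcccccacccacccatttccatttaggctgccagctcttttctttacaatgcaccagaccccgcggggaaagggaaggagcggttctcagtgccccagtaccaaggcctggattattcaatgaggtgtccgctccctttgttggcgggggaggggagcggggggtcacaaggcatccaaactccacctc
Fabp7: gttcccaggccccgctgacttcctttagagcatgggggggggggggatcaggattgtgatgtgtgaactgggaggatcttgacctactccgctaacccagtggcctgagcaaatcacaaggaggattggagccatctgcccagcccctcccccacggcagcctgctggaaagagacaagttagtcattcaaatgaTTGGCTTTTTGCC

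In the Abca1 stretch the E-box begins 147 bases before the start site, a match to the LXR-type repeat on the reverse strand begins 67 bases before it, and the TATA element 29 bases before it. The Fabp7 stretch holds the nuclear factor I-type pattern, beginning 55 bases before the RefSeq start site. No pattern matched in the first Apoe window, and the second held the TATA element on both strands, beginning 96 and 100 bases before its own start site. Among all 32851 promoter windows of that length, 7.15% held the E-box, 13.6% the TATA element, 1.38% the nuclear factor I-type pattern and 0.207% the LXR-type repeat. A match is a description of letters and shows neither binding nor use.

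After filtering there were 9145 cells from the neural stem cell culture, 9818 from the astrocyte culture and 14964 from the MIM-treated one, with 14689259, 50594420 and 50906724 UMIs (molecule counts). Median UMIs per cell were 1379, 5089 and 3156 in that order, so shares of cells are given after thinning each cell to 1000 UMIs, which left out 1457, 351 and 973 shallower cells. The libraries shared between 25 and 43 cell barcodes in pairs, at most 0.438% of a library. Malat1, a nuclear RNA, took 26.9%, 13.7% and 9.44% of UMIs, and ribosomal protein genes 11.1%, 2.74% and 7.85%. Summed astrocyte markers stood at 1141, 2396 and 1254 CPM (UMIs scaled to the same total in each library), and all 10 were detected in each library. Neural progenitor markers stood at 1054, 333 and 541 CPM and dividing-cell markers at 626, 10.7 and 2440.1 CPM. Oligodendrocyte lineage markers stood at 793, 140.2 and 630.4 CPM and neuron markers at 299, 71.0 and 83.6 CPM, while endothelial, mural and fibroblast markers summed to at most 1.38, 13.0 and 24.1 CPM in any library. Of the 10 microglia and macrophage markers, 9, 7 and 6 were at 0, among them Ptprc, Cx3cr1, C1qa and Tyrobp in each library, and the list summed to 1.09, 0.613 and 0.629 CPM. The part that cell makeup had in the differences below was not tested, except where a value within clusters is given. The part of Malat1 and of ribosomal protein genes was not tested either, beyond leaving them out of the totals. In bulk sums such as these, fewer cells of a kind and less RNA per cell cannot be told apart.

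Of the 5 genes, Clu set the libraries furthest apart. It stood at 16.1 CPM in neural stem cells (exact 95% Poisson interval 14.1 to 18.3; 237 UMIs), at 4070.4 CPM in astrocytes (4053 to 4088; 205937 UMIs) and at 447 CPM in MIM-treated astrocytes (441 to 453; 22762 UMIs). These intervals, like all those below, cover counting error only and not the spread between cultures. The astrocyte level was 252-fold that of neural stem cells (222 to 288), a log2 ratio of 7.89 with a pseudocount of 1 CPM. Under MIM the level was 9.10-fold lower than in astrocytes (8.98 to 9.23; log2 ratio -3.18), yet still 27.7-fold above neural stem cells (24.4 to 31.6; log2 ratio 4.71). MIM-treated cells thus held an intermediate level of Clu. The summed astrocyte markers, given above, differed less than Clu between the same libraries. Among single markers, Gfap stood at 1.16, 271 and 4.05 CPM and Aqp4 at 11.9, 566 and 22.9 CPM in the same order of libraries. Between astrocytes and MIM-treated astrocytes both differed more than Clu. Against neural stem cells Aqp4 differed less than Clu, in astrocytes and in MIM-treated astrocytes. Gfap differed less than Clu in MIM-treated astrocytes. In astrocytes it could not be ranked against Clu, as Gfap had only 17 UMIs in neural stem cells. Aldoc stood at 60.6, 895 and 391 CPM. The other markers of the astrocyte list did not peak in astrocytes. Slc4a4 (77.1, 70.2 and 178 CPM) and S100b (31.0, 11.8 and 87.8 CPM) were highest under MIM. Sox9 (413, 256 and 98.6 CPM), Slc1a3 (385, 206 and 363 CPM), Aldh1l1, Slc1a2 and Gja1 were highest in neural stem cells. The part of these marker differences in the Clu values was not tested. Markers of choroid plexus, a tissue known for Clu, summed to 0.408, 28.4 and 2.36 CPM in the same order, and the astrocyte value was mostly Folr1 at 27.2 CPM; Kl and Clic6 were at 0 in each library. Ependymal markers summed to 6.60, 47.3 and 13.3 CPM.

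Apoe, by contrast, was high in every library and highest under MIM. Its level was 4683 CPM in neural stem cells (4648 to 4718), 12463 CPM in astrocytes (12432 to 12493) and 16996 CPM in MIM-treated astrocytes (16960 to 17032). Astrocytes held 2.66-fold more than neural stem cells (2.64 to 2.68; log2 ratio 1.41), and MIM-treated cells 3.63-fold more (3.60 to 3.66; log2 ratio 1.86). The step from astrocytes to MIM-treated astrocytes was 1.36-fold (1.36 to 1.37; log2 ratio 0.45), which is below the size of 1 on the log2 scale used here for calling a gene higher or lower. So the secreted pair, Clu and Apoe, went opposite ways between astrocytes and MIM-treated astrocytes, the first by a wide margin and the second by a narrow one.

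Abca1, the pump that supplies lipid to apolipoprotein E, ran in the reverse order of Apoe. It reached 67.7 CPM in neural stem cells (63.5 to 72.0; 994 UMIs), 17.1 CPM in astrocytes (16.0 to 18.3; 866 UMIs) and 12.3 CPM in MIM-treated astrocytes (11.4 to 13.3; 628 UMIs). The astrocyte level was 3.95-fold lower than that of neural stem cells (3.61 to 4.34; log2 ratio -1.92), and the MIM level 5.49-fold lower (4.96 to 6.07; log2 ratio -2.36). Between astrocytes and MIM-treated astrocytes the level was 1.39-fold lower (1.25 to 1.54; log2 ratio -0.44), with both libraries under 50 CPM, the minimum for a call.

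The fatty acid-binding proteins had yet another order. Fabp7, the glial progenitor marker, stood at 3729 CPM in neural stem cells (3698 to 3760.1), 1793 CPM in astrocytes (1782 to 1805) and 10036 CPM in MIM-treated astrocytes (10008 to 10063). It was 2.08-fold lower in astrocytes than in neural stem cells (2.06 to 2.10; log2 ratio -1.06) and 5.60-fold higher in MIM-treated astrocytes than in astrocytes (5.56 to 5.64; log2 ratio 2.48). The MIM level also lay 2.69-fold above that of neural stem cells (2.67 to 2.72; log2 ratio 1.43), so Fabp7 was lowest in astrocytes and passed the neural stem cell level under MIM. With TMM scaling the log2 ratio of astrocytes to neural stem cells was -0.89 and no longer reached 1 in size.

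Fabp5 was close between the first 2 libraries and high under MIM: 526 CPM in neural stem cells (514 to 538), 616 CPM in astrocytes (609 to 623) and 1813 CPM in MIM-treated astrocytes (1801 to 1825). The ratio of astrocytes to neural stem cells was 1.17-fold (1.14 to 1.20; log2 ratio 0.23), and without Malat1 in the totals its log2 value was -0.01. Against astrocytes, the MIM level was 2.94-fold higher (2.91 to 2.98; log2 ratio 1.56), and against neural stem cells 3.45-fold higher (3.37 to 3.53; log2 ratio 1.78). Both binding proteins therefore stood higher under MIM than in either other library.

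**Figure D1:**
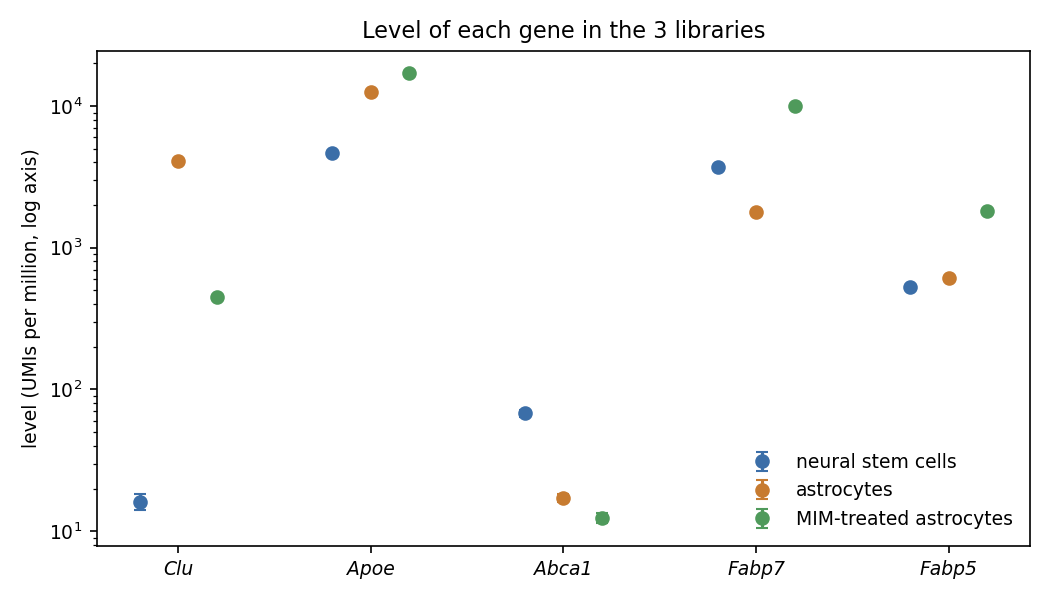
Level of each gene in CPM on a log axis, by library, with exact 95% Poisson intervals that are mostly smaller than the points (1 library per group). Clu spans from 16.1 to 4070.4 CPM, Apoe and Fabp5 are highest in the MIM-treated library, Abca1 is highest in neural stem cells, and Fabp7 is lowest in astrocytes.

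Read by the size rule, 2 of the 5 genes were higher in MIM-treated astrocytes than in astrocytes (Fabp7 and Fabp5) and 1 was lower (Clu); Apoe passed in neither direction and Abca1 was under the minimum level. Of all 2895 genes at 50 CPM or more in either library, 14.7% were higher and 17.5% lower by the same rule. From neural stem cells to astrocytes 2 genes were higher (Clu and Apoe), 2 lower (Abca1 and Fabp7) and Fabp5 neither, beside 31.2% higher and 22.9% lower of 3192 genes. From neural stem cells to MIM-treated astrocytes 4 were higher (Clu, Apoe, Fabp7 and Fabp5) and Abca1 lower, beside 20.3% higher and 16.2% lower of 2830 genes. The median log2 ratio of the 5 genes in these comparisons was 0.45, 0.23 and 1.78, and that of all genes tested -0.07, 0.38 and 0.29. The comparisons share libraries, so they are not independent of each other, and with 5 genes these counts describe the genes only.

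Shares of cells with at least 1 UMI are given next. No cell type here is known to lack Apoe, Fabp7 or Fabp5, so these shares have no background measured beside them. At 1000 UMIs per cell, Clu was detected in 1.59% of neural stem cells (exact 95% binomial interval 1.32 to 1.89), 94.1% of astrocytes (93.7 to 94.6) and 27.2% of MIM-treated astrocytes (26.5 to 27.9). Before thinning the shares were 2.23%, 98.5% and 51.4%. The lower Clu level under MIM thus came with far fewer cells with a UMI, and the mean per thinned cell was 0.40 UMIs against 4.14 in astrocytes and 0.02 in neural stem cells. At the MIM mean, Poisson counting alone would leave 67.3% of cells at 0, and 72.8% were at 0. A cell without a Clu UMI may therefore still express the gene. In MIM-treated astrocytes 8.46% of thinned cells held 2 or more Clu UMIs, and in astrocytes 82.4%.

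Apoe was detected in 78.4% of thinned neural stem cells (77.5 to 79.4), 99.4% of astrocytes (99.2 to 99.5) and 96.0% of MIM-treated astrocytes (95.6 to 96.3); unthinned shares were 82.2%, 99.7% and 97.5%. Its spread differed more than its share. Astrocytes and MIM-treated astrocytes had the same median of 12 UMIs per thinned cell, against 3 in neural stem cells. The 5th to 95th percentiles ran from 3 to 25 in astrocytes but from 1 to 44 in MIM-treated astrocytes, with highest cells at 68 and 161 UMIs. The ratio of variance to mean was 3.89 in astrocytes, 12.9 in MIM-treated astrocytes and 5.63 in neural stem cells. The 1.36-fold higher sum under MIM was therefore one of a wider distribution: 4.03% of thinned MIM cells had 0 Apoe UMIs against 0.613% of astrocytes, while the 10% of MIM cells with the most Apoe held 30.0% of its UMIs against 21.4% in astrocytes. At 2000 UMIs per cell the medians were 7, 24 and 28 in the order above, and the 5th to 95th percentiles 0 to 26, 7 to 49 and 4 to 90.

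Fabp7 showed how depth can turn an order. Before thinning, 87.2% of neural stem cells and 96.0% of astrocytes held a UMI, whereas at equal depth the shares were 83.8% (83.0 to 84.6) and 70.1% (69.2 to 71.1), the order of the CPM. MIM-treated astrocytes stood at 98.5% (98.3 to 98.7) thinned and 99.7% unthinned, with a median of 8 UMIs per thinned cell against 3 in neural stem cells and 1 in astrocytes. Its 5th percentile under MIM, 2 UMIs, was above the astrocyte median. The higher level of Fabp7 under MIM was thus seen in the UMI counts of nearly all cells; the part of free RNA was not tested.

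For Fabp5 the thinned shares were 31.5% (30.5 to 32.5), 40.5% (39.5 to 41.5) and 72.3% (71.6 to 73.1), and the unthinned ones 39.8%, 82.2% and 88.8%. Abca1 was detected in 6.28% (5.75 to 6.85), 1.57% (1.33 to 1.85) and 1.24% (1.06 to 1.43) of thinned cells and in 9.47%, 8.37% and 4.08% of unthinned ones. With a mean of at most 0.07 UMIs per thinned cell, Abca1 shares are shares of cells with a single molecule caught, and a cell without one may still express the gene.

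**Figure D2:**
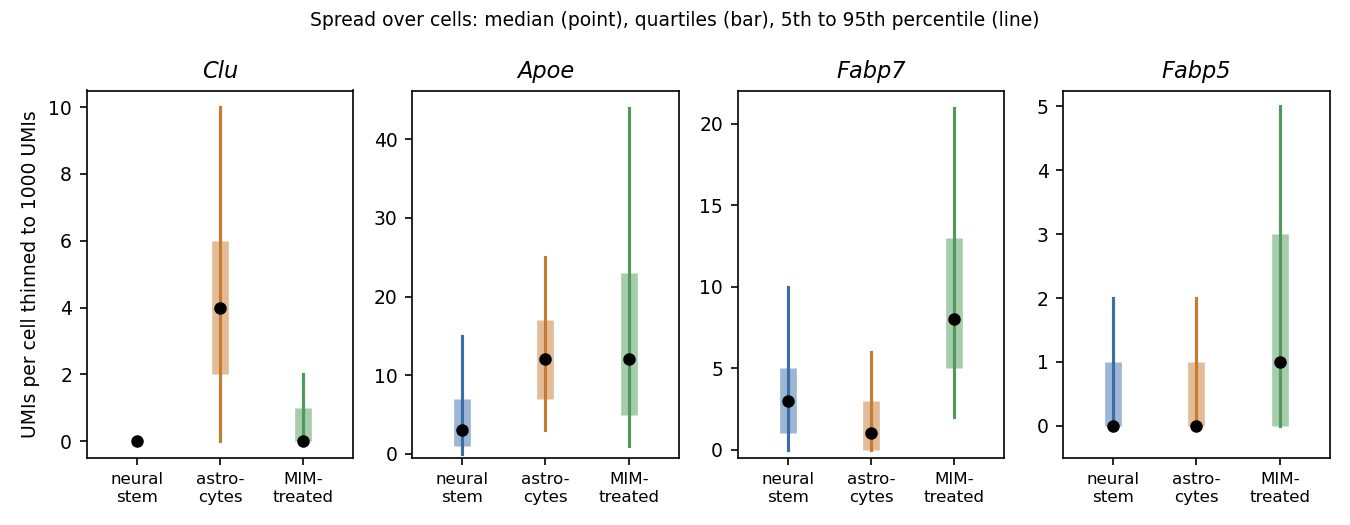
UMIs per cell after thinning to 1000 UMIs for Clu, Apoe, Fabp7 and Fabp5 in the 3 libraries; points are medians, thick bars quartiles and lines the 5th to 95th percentiles over cells. The Apoe median is 12 in both astrocyte libraries while its line is longer under MIM, and the Fabp7 distribution shifts from a median of 1 in astrocytes to 8 under MIM.

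To see where in each library the genes were found, the cells were clustered without using the 5 genes, which gave 17 clusters in all. Clusters are numbered within a library and named only where at least 3 markers led them. In the neural stem cell library 4 clusters could be named: neural progenitor-like (cluster 0, 3153 cells), oligodendrocyte lineage-like (cluster 1, 2767 cells), astrocyte-like (cluster 2, 2122 cells) and dividing cells-like (cluster 4, 762 cells). Helt and Dll3 were also among the leading genes of cluster 1. At a finer resolution the library held 2104 unnamed cells led by Chd3, Helt and Tubb3 and 514 cells led by Pdgfra and Sox10. How many of these cells belong to cluster 1 was not counted. Within the astrocyte library no cluster reached 3 markers, and in the MIM-treated library only cluster 4 did, as dividing cells-like (2480 cells). Unnamed MIM cluster 3 (2881 cells) was led by Pttg1, Selenoh and Cenpa, with Clu at 251 CPM and Apoe at 9448 CPM. At the finer resolution, MIM clusters of 1520, 993 and 1469 cells were named dividing cells-like, the first of them also led by Pttg1 and Cenpa. MIM clusters of 3384 and 1443 cells were named astrocyte-like there, with Apoe at 25180 and 30994 CPM and Clu at 687 and 701 CPM. In the astrocyte library a cluster of 1253 cells was named astrocyte-like at that resolution, with Apoe at 15812 CPM and Clu at 4045 CPM. Cluster levels are a description, with no test.

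Clu in the neural stem cell library was found mostly in 1 cluster. The astrocyte-like cluster held 169 of the 237 Clu UMIs (71.3%) at 50.7 CPM (43.4 to 59.0), and its cells make up 23.2% of the library. Cluster 1 held 0 Clu UMIs among 3791222, and 0 of its 2266 thinned cells, which with a floor of 3 counts allows a share of cells with a UMI at this depth of up to 0.132% (exact 95% upper bound 0.163%), against 4.92% of thinned cells in the astrocyte-like cluster (3.97 to 6.01). Set against a floor of 3 counts in cluster 1, the Clu level of the astrocyte-like cluster was 64.1-fold higher. This is not a lower bound, since the exact 95% upper limit for cluster 1 was 0.973 CPM. Median depths were 1418 UMIs per cell in the astrocyte-like cluster and 1289 in cluster 1. The neural progenitor-like and dividing cells-like clusters lay between, at 8.98 and 10.6 CPM.

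Apoe had the same highest and lowest cluster in that library, with another order between them. It ran from 1090.4 CPM in cluster 1 (1057 to 1124) to 9455 CPM in the astrocyte-like cluster (9351 to 9560), an 8.67-fold range (8.39 to 8.96), and 50.1% of thinned cluster 1 cells held a UMI against 98.7%. At the finer resolution the Pdgfra-led cells stood at 398 CPM. Abca1 was also highest by CPM in the astrocyte-like cluster, at 120.4 CPM (108.9 to 132.8) against 42.7 CPM in cluster 1 (36.4 to 49.8). The astrocyte-like cluster held 40.3% of Abca1 UMIs. Its Abca1 level was within counting error of unnamed cluster 3, at 101.9 CPM (76.96 to 132.3). In thinned cells cluster 3 had the higher Abca1 share, 12.9% against 11.6%. By CPM the 3 genes of the extracellular lipid path thus shared their highest neural stem cell cluster. For Abca1 that cluster was not set apart from cluster 3.

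Fabp7 was at a similar level in several clusters of that library, at 5092 CPM in unnamed cluster 3, 4503 CPM in the neural progenitor-like, 4701 CPM in the astrocyte-like and 4620.1 CPM in the dividing cells-like cluster, with 1225 CPM in cluster 1. Fabp5 ran from 182 CPM in cluster 1 to 901 CPM in the astrocyte-like cluster and 1201 CPM in the small unnamed cluster 3 (181 cells). Cluster 1 therefore had the lowest CPM of the neural stem cell clusters for all 5 genes. For Abca1 this was within counting error of dividing cells-like cluster 4, at 48.9 CPM (39.6 to 59.6). In thinned cells that cluster had the lower Abca1 share, 3.57% against 3.75% in cluster 1.

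In the astrocyte library Clu, Apoe, Fabp7 and Fabp5 varied by 2.02-fold to 2.36-fold between clusters, and Abca1 by 6.21-fold (2.24 to 23.9). Clu ran over 2.07-fold between clusters, from 2989 CPM in cluster 4 to 6179 CPM in cluster 3, and even its lowest cluster there exceeded the highest of the other 2 libraries. Cluster 4 (418 cells), the lowest for Clu and Apoe and the highest for Fabp7 and Fabp5, is shallow, with a median of 769.5 UMIs per cell. Cluster 3 (275 cells), led by Ncan and Gria1, had the highest Clu and also the highest Abca1, 64.8 CPM (46.3 to 88.3) against 10.4 CPM (2.85 to 26.7) in cluster 4, on 40 and 4 UMIs. Its median depth of 1959 UMIs was also below that of the library. An unnamed cluster of 144 cells led by the chemokines Ccl2 and Cxcl10 had Clu at 3811 CPM and Apoe at 11612 CPM, inside the range of the others.

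Under MIM the clusters moved apart again. Cluster 0 (5719 cells, 38.2% of the library), led by Aldoc, Sparcl1 and F3, held 68.0% of all Apoe UMIs at 25992 CPM (25926 to 26059) and 65.2% of Clu UMIs at 655 CPM (645 to 666). Cluster 2 (2845 cells), led by Gm813, Lhfpl3 and Prss23 with Olig2 among its markers, was lowest for both, at 8094 CPM of Apoe (8020.1 to 8169) and 110.1 CPM of Clu (101.6 to 119.1). That is a 3.21-fold range for Apoe (3.18 to 3.24) and a 5.95-fold range for Clu (5.49 to 6.46). Clu was detected in 41.5% of thinned cells of cluster 0 and 7.81% of cluster 2, at median depths of 3884 and 1809 UMIs before thinning. Split more finely, the MIM-treated library ran from 34.1 to 828 CPM of Clu and from 3598 to 30994 CPM of Apoe, so these ranges depend on the resolution.

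The binding proteins shared that lowest cluster: Fabp7 stood at 4485 CPM in cluster 2 against 11663 CPM in cluster 0 and 12545 CPM in the shallow cluster 1 (1039 cells, median 801 UMIs). Fabp5 stood at 696 CPM in cluster 2 against 2078 CPM in cluster 0. In dividing cells-like cluster 4 Fabp7 was 9313 CPM and Fabp5 1794 CPM, below cluster 0. Each MIM cluster, including the lowest, exceeded every astrocyte cluster for Fabp7, as 4485 CPM compares with at most 2527 CPM there. For Apoe this did not hold: cluster 2 lay within the astrocyte range of 6806 to 13781 CPM, cluster 0 above it. Abca1 stayed between 6.94 and 16.7 CPM in all MIM clusters. At the finer resolution it reached 54.6 CPM (29.1 to 93.4) in a cluster of 191 cells, on 13 UMIs and at a median depth of 1054 UMIs.

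**Figure D3:**
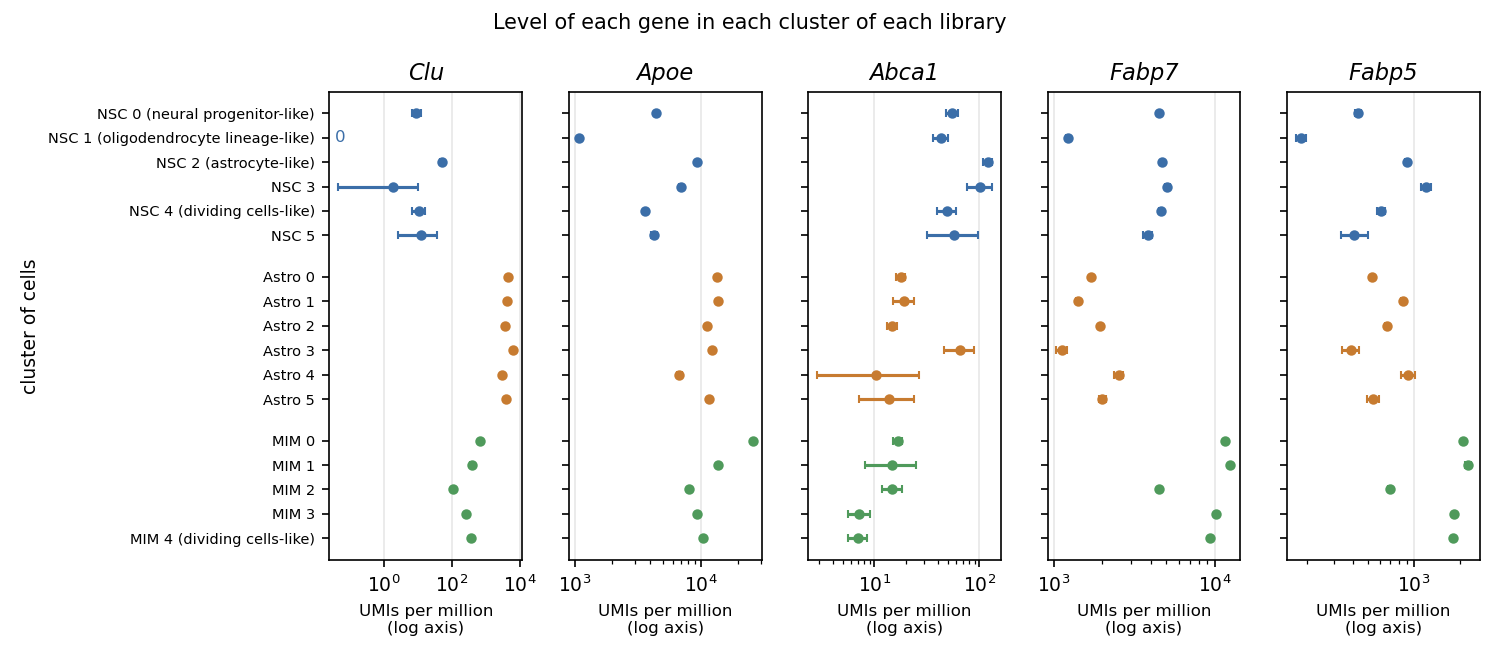
Level of each gene in CPM (log axes) in each cluster of the neural stem cell (NSC), astrocyte (Astro) and MIM-treated (MIM) libraries, with exact 95% Poisson intervals; a 0 marks no UMI. Clu is at 0 in neural stem cell cluster 1, Apoe peaks at 25992 CPM in MIM cluster 0, and all MIM clusters lie above all astrocyte clusters for Fabp7.

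Co-detection in single cells was described by the odds ratio that a thinned cell with a UMI of 1 gene also has a UMI of the other, over all cells and then within clusters (Mantel-Haenszel). For Clu and Apoe it was 10.7 in MIM-treated astrocytes and 4.89 within clusters, where 3784 of 3804 cells with Clu also had Apoe. MIM cells with a Clu UMI held a mean of 22.4 Apoe UMIs, and cells without held 13.4. In neural stem cells 121 of 122 cells with Clu had Apoe, an odds ratio of 33.9 (6.20 within clusters) that rests on a single cell without Apoe. In astrocytes, where nearly every cell had both, it was 3.82 (2.64 within clusters). At 1000 UMIs the secreted pair was thus found together above the product of their shares in each library, by little in astrocytes (93.7% against 93.6%). At 2000 UMIs per cell the astrocyte odds ratio was 0, since none of the 107 cells without Clu lacked Apoe and 7 cells had Clu alone.

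Apoe and its lipid pump Abca1 were also found together, with an odds ratio of 2.95 in neural stem cells (2.10 within clusters) and 3.62 under MIM (3.08 within clusters). The MIM value rests on 2 cells with Abca1 and no Apoe. In astrocytes it was 0.91 (1.02 within clusters), on 1 such cell. Among 2346 genes compared in neural stem cells and 2335 under MIM, Apoe had the highest correlation over cells with Abca1 (Pearson r 0.12 and 0.08), both weak values from sparse counts.

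The 2 fatty acid-binding proteins had an odds ratio of 2.29 in neural stem cells, 1.19 in astrocytes and 3.08 under MIM, and of 1.44, 1.19 and 1.37 within clusters. Over MIM cells Fabp7 was the gene with the highest correlation with Fabp5 (r 0.27). Apoe and Fabp7 showed an odds ratio of 2.63 in neural stem cells and 2.46 under MIM, but 0.95 and 0.91 within clusters: most of their co-detection followed the clusters. In astrocytes the same pair gave 1.92, and 1.99 within clusters. Abca1 and Fabp7 were below 1 in neural stem cells (0.86; 0.55 within clusters) and under MIM (0.63; 0.66 within clusters), the latter on 4 cells with Abca1 and no Fabp7, and above it in astrocytes (1.09; 1.17 within clusters). At 2000 UMIs the neural stem cell value was 1.06 (0.74 within clusters), from only the 1615 cells that reached this depth.

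Counting all 5 genes, the most common combination in neural stem cells was Apoe with Fabp7 (40.6% of thinned cells), in astrocytes Clu with Apoe and Fabp7 (37.8%), and under MIM Apoe with Fabp7 and Fabp5 (48.0%). The shares that independent genes would give were 41.5%, 38.4% and 49.2%. A cell with none of the 5 was found 366 times in neural stem cells, or 4.76% against 2.21% for independent genes, 4 times in astrocytes and 10 times under MIM.

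**Figure D4:**
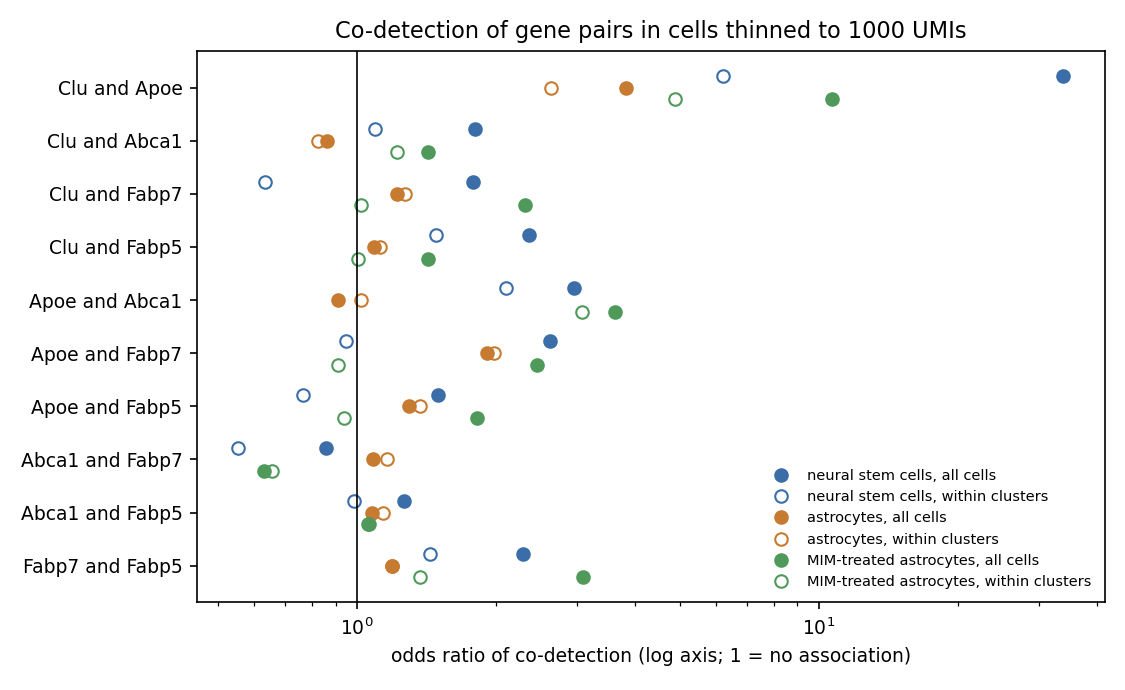
Odds ratio of co-detection for each pair of the 5 genes in cells thinned to 1000 UMIs, on a log axis, by library; filled points use all cells, open points are within clusters, and the line marks 1. Clu with Apoe lies above 1 in each library both ways, whereas Apoe with Fabp7 falls from 2.46 to 0.91 within clusters in the MIM-treated library.

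Genes with the most similar pattern were found by the correlation of log2(CPM + 10) over the 17 clusters, among 4132 genes. These clusters share 3 libraries with their depth and medium, so the values are descriptions. Closest to Clu were Ifitm3 (r 0.98), Slc25a33 (0.97) and Fuca1 (0.97), and closest to Apoe were Cst3 (0.92), which encodes the secreted protease inhibitor cystatin C, the metallothionein Mt3 (0.92) and the kinase gene Jak1 (0.90). Xiap (0.95) and Atp8a1 (0.93) were among the 3 closest to Abca1. For Fabp7 they were Cnih2 (0.94), Igfbp4 (0.94) and Ndufc2 (0.94), and for Fabp5 Ddt (0.94), Celrr (0.92) and the serine synthesis gene Psph (0.91). After each library's own mean had been taken away, other genes came first: Osbpl1a for Clu (0.91), Sparcl1 for Apoe (0.95), Psap for Abca1 (0.92), Pea15a for Fabp7 (0.95) and Nudt9 for Fabp5 (0.94). Over single cells Apoe was closest to Dbi, the acyl-CoA-binding protein, in neural stem cells (r 0.55) and to Cst3 under MIM (r 0.57), while in astrocytes its highest value, with Pla2g7, was 0.20.

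The rest of the lipid path was read from 6 lists, with a gene counted as measured at 20 UMIs over both libraries and as higher or lower at a log2 ratio of 1, with no minimum level. From astrocytes to MIM-treated astrocytes, 8.49% of 13876 genes were higher and 15.2% lower on that count, with a median log2 ratio of -0.19. Of 16 lipoprotein and scavenger receptors and their adaptors, 0 were higher and 5 lower (median -0.54). Among the lower ones were Sorl1, Lrpap1, Lrp4 and Lrp10. The receptor chaperone gene Lrpap1 went from 37.9 CPM in neural stem cells to 190.6 CPM in astrocytes and 62.9 CPM under MIM. Sorl1, a sorting receptor that binds apolipoprotein E, had 2.59, 49.5 and 3.56 CPM in the same order, with a log2 ratio of -3.47 from astrocytes to MIM. So this receptor and this chaperone shared with Clu an astrocyte peak.

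Lrp1, a main receptor for apolipoprotein E particles, had the order of Abca1 only in part, with 94.8 CPM in neural stem cells, 26.4 CPM in astrocytes and 31.7 CPM under MIM. Lrp4 stood at 72.1, 64.1 and 24.9 CPM. From neural stem cells to astrocytes 5 of 16 in this list were higher (among them Sorl1, Lrpap1 and Lrp10) and 5 lower (Lrp8, Lrp1, Lrp5, Scarb1 and Vldlr), beside 19.9% and 22.6% of 13647 genes, and to MIM-treated astrocytes 1 was higher and 7 lower, beside 9.29% and 20.5% of 13097 genes.

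Other apolipoproteins were scarce. Of 12 besides Apoe only 4 were measured between astrocytes and MIM-treated astrocytes, and 1 of them was lower, Apoh, at 7.97 and 2.18 CPM (log2 ratio -1.50). Apoc1, which neighbours Apoe, stood at 4.70, 2.59 and 3.56 CPM. Of 9 other lipid transporters of the ABC family, 1 was higher under MIM than in astrocytes (Abca4) and 2 lower (Abca9 and Abca5), all under 16 CPM. Abcg1, the partner of Abca1 in cholesterol efflux, had 36, 3 and 7 UMIs in the libraries, with 2.45 CPM in neural stem cells. Between neural stem cells and astrocytes Abca9 and Abca5 were higher in the latter and Abcg1 and Abcg4 lower, and in MIM-treated astrocytes Abca4 was higher and Abcg1 and Abcg4 lower.

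Among 8 other lipid-binding proteins measured, 2 were higher and 2 lower under MIM than in astrocytes (median -0.36). Dbi stood at 11873, 14415 and 29009 CPM, highest under MIM as Fabp7 and Fabp5 were. Scp2, the sterol carrier protein gene, peaked in astrocytes at 755 CPM with 178 CPM in neural stem cells and 375 CPM under MIM, and Crabp1 was the second that was lower (log2 ratio -3.19). Against neural stem cells, 2 of 7 were higher in astrocytes (Scp2 and Crabp1) and 3 of 5 in MIM-treated astrocytes (Dbi and Scp2 among them), with 0 lower. The close relatives Fabp3 and Fabp4 stayed at 3.34 CPM or less.

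Of 15 nuclear lipid receptors and their targets, 0 were higher and 6 lower from astrocytes to MIM (median -0.45), among them Scd1, Nr1h3, Lpcat3, Nr1h2 and Plin2. Scd1, a fatty acid desaturase gene, went from 4.49 CPM in neural stem cells to 83.1 CPM in astrocytes and 12.9 CPM under MIM. Nr1h3, which encodes liver X receptor alpha, had 0.204, 10.1 and 0.864 CPM. The paralog Scd2 was nearly level at 225, 201 and 179.9 CPM. Both Nr1h3 and Scd1 thus peaked in astrocytes, where Abca1 was below its neural stem cell level. Relative to neural stem cells, astrocytes had 4 of 16 higher (Scd1, Nr1h3, Plin2 and Lpcat3) and 3 lower (Angptl4, Rxra and Cpt1a), and MIM-treated astrocytes 1 of 15 higher (Scd1) and 6 lower.

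Of 15 genes for lipid release and cholesterol trafficking, 0 were higher and 6 lower (median -0.85). Lcat, the lecithin-cholesterol acyltransferase that esterifies cholesterol on lipoproteins, had 1.02 CPM in neural stem cells, 49.0 CPM in astrocytes and 5.81 CPM under MIM. Pltp, a phospholipid transfer protein gene, had 2.04, 20.5 and 7.17 CPM. Osbpl1a, an oxysterol-binding protein relative, had 35.3, 195.5 and 73.5 CPM. These 3 genes had the order of Clu, and the others that were lower were Nceh1, Cyp46a1 and Lipa. Against neural stem cells, 5 of 15 genes were higher in astrocytes and 5 of 14 in MIM-treated astrocytes, with 0 lower in either; both times these were Lcat, Pltp, Nceh1, Osbpl1a and Cyp46a1. Soat1 (70.1, 45.8 and 62.0 CPM), Npc1 (61.4, 33.8 and 43.5 CPM) and Npc2 (328 CPM in astrocytes and 255 CPM under MIM) did not reach the size rule. Outside Lrpap1, Lrp4, Lrp10, Lrp1, Dbi, Scp2, Scd1, Scd2, Lpcat3, Soat1, Npc1, Npc2 and Osbpl1a, the genes of these lists were named after their values were seen.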

How the data were processed

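The 5 genes were measured in 3 libraries, 1 per group. The deposited values are UMI counts per gene and cell, made by the authors with Cell Ranger 3.0.2 and the mm10 reference, per the labels' protocols. The submitters' processing notes also name Seurat 3.1.1, without its role. Every deposited barcode had at least 500 UMIs. Cells with at least 200 genes and at most 20% mitochondrial UMIs were kept, a filter that took 12, 7 and 13 barcodes from the neural stem cell, astrocyte and MIM libraries. Scrublet called 0 cells in each library, too few for libraries of this size to be relied on; doublets were kept, and an alternative left out the 8% of cells with the highest scores.

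UMIs were summed per library and divided by its total (CPM). A gene was called at a log2 ratio of 1 in size (pseudocount 1 CPM) and 50 CPM in either library. Intervals are exact, at 95%, and cover counting error only. Clustering (scanpy 1.11.5) used 2000 variable genes without the 5 genes, 30 components, 15 neighbours and Leiden resolution 0.5. The functions were tested on simulated data. TMM factors came from edgeR 4.0.16, and near-identical transcripts from blastn 2.17.0. Alternatives were other totals, filters, pseudocounts, depths and resolutions.

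The genes, gene lists and markers were chosen with earlier results of these data known. In each list the 3 genes with the largest log2 ratio per comparison at 50 CPM were named, as were the 3 genes most like each of the 5; a few of these are not reported here.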

Additional observations from a re-analysis of the deposited data

How the results depend on the processing

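Over 9 alternative settings (TMM, totals without Malat1 or without mitochondrial and ribosomal protein genes, no or a stricter cell filter, a pseudocount of 10 CPM, equal weight for each cell, the highest Scrublet scores left out and, chosen after seeing the data, 2 shallow clusters left out), 14 of 15 log2 ratios kept their sign. The exception was Fabp5 between astrocytes and neural stem cells, from -0.01 to 0.39. For MIM-treated astrocytes over astrocytes, Clu ranged from -3.39 to -2.95, Apoe from 0.34 to 0.69, Abca1 from -0.51 to -0.22, Fabp7 from 2.41 to 2.72 and Fabp5 from 1.49 to 1.80. The number of genes past the size rule stayed at 3 in that comparison and 5 for MIM-treated astrocytes over neural stem cells. For astrocytes over neural stem cells it was 4, and 3 with TMM. TMM moved the median of all genes by 0.24, 0.16 and 0.40 in the order MIM-treated over astrocytes, astrocytes over neural stem cells and MIM-treated over neural stem cells, and leaving out Malat1 by -0.07, -0.24 and -0.31; the cause of these shifts was not tested. Odds ratios, each of a gene pair in 1 library, were compared where they could be computed. They kept their side of 1 in 20 of 26 at 2 or more UMIs, 21 of 27 at 2000 UMIs and 30 of 30 without the highest Scrublet scores. Of the 15 ranges between clusters, 4 stayed within counting error at resolution 1.0. The others moved beyond it, apart from Clu in neural stem cells, which has no interval because its lowest cluster held 0 UMIs. Set against a floor of 3 counts, the Clu range there was 64.1-fold in the main clustering and 51.2-fold at resolution 1.0. Depth limits the Abca1 values, which rest on at most 994 UMIs in a library. No paired analysis was possible because each group has 1 library.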
